A study of Micropterus salmoides with 24 samples.

Results

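The head kidney of adult male largemouth bass (Micropterus salmoides, a freshwater fish) was compared between 4 libraries labelled glyphosate and 4 labelled control, which are 8 of the 24 libraries of the study. The libraries were chosen by their titles. All fish were adult males from a Florida hatchery and were kept for 21 days in glass tanks, the controls in clean water and the exposed fish in water with glyphosate at 10 mg/L. The other libraries served as reference. Of these, 4 were of head kidney from fish kept with Rodeo, a commercial glyphosate product, at the same glyphosate concentration. The other 12 were of trunk kidney from the same 3 treatments. The 4 head Rodeo libraries also entered the main fit, where they helped set the filter, the scaling and the spread. The arm at 0.5 mg/L is not analysed here. Whole tissue was sequenced, so fewer cells of a type and less RNA per cell cannot be told apart.

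Glyphosate blocks an enzyme that plants and many microbes use to make aromatic amino acids and that animals lack. In bony fish the head kidney forms blood and immune cells, presents antigen, and holds the interrenal cells that make cortisol and the chromaffin cells that make catecholamines. The trunk kidney lies directly behind it and holds most of the nephrons, whose tubules take back salts, sugars and amino acids from the urine. Because both are parts of one organ, a piece of head kidney can carry some tubule tissue, and abundant trunk transcripts were therefore followed separately.

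The values were read counts for 78435 transcript contigs, sequences assembled from reads. None of the identifiers could be paired with a gene name (0 matches), so markers of interrenal, immune, blood or tubule cells were not tested, and contigs are described by where they were abundant. Library totals were 9871623 to 24374444 counts in controls and 11155380 to 22210960 in the glyphosate group. At an equal depth of 9000000 counts, control libraries held 36506 to 54578 detected contigs and glyphosate libraries 45203 to 55944. Control replicate 3 was the shallowest of the 8 and lay alone at one end of the leading principal component (33.2% of the variance), at -151 against -2.2 to 49.6 for the other 7.

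Before any comparison, the labels were set against contigs that were either on or off. Of these, 57 contigs had a gap of more than 8-fold between neighbouring libraries in head kidney and also in trunk kidney. Over these contigs, 8 of the 144 pairs of a head and a trunk library were in the same state for 98.2% to 100% of contigs, while no other pair exceeded 86.0% and the median of the other pairs was 54.4%. In 0 of the 8 matched pairs did both libraries carry the same treatment label. Of the 8 head libraries compared here, 6 were matched. The head libraries labelled control 2, control 3 and control 4 matched trunk glyphosate 4, trunk Rodeo 1 and trunk Rodeo 2. The head libraries labelled glyphosate 1, glyphosate 3 and glyphosate 4 paired with trunk Rodeo 4, with trunk control 1 and with trunk control 2. Control 1 and glyphosate 2 had no match, with best values of 71.9% and 73.7%. A missing match does not show that a label is right. Which tissue carries the wrong labels, if either does, was not tested, and every group below is the group as labelled.

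**Figure D1:**
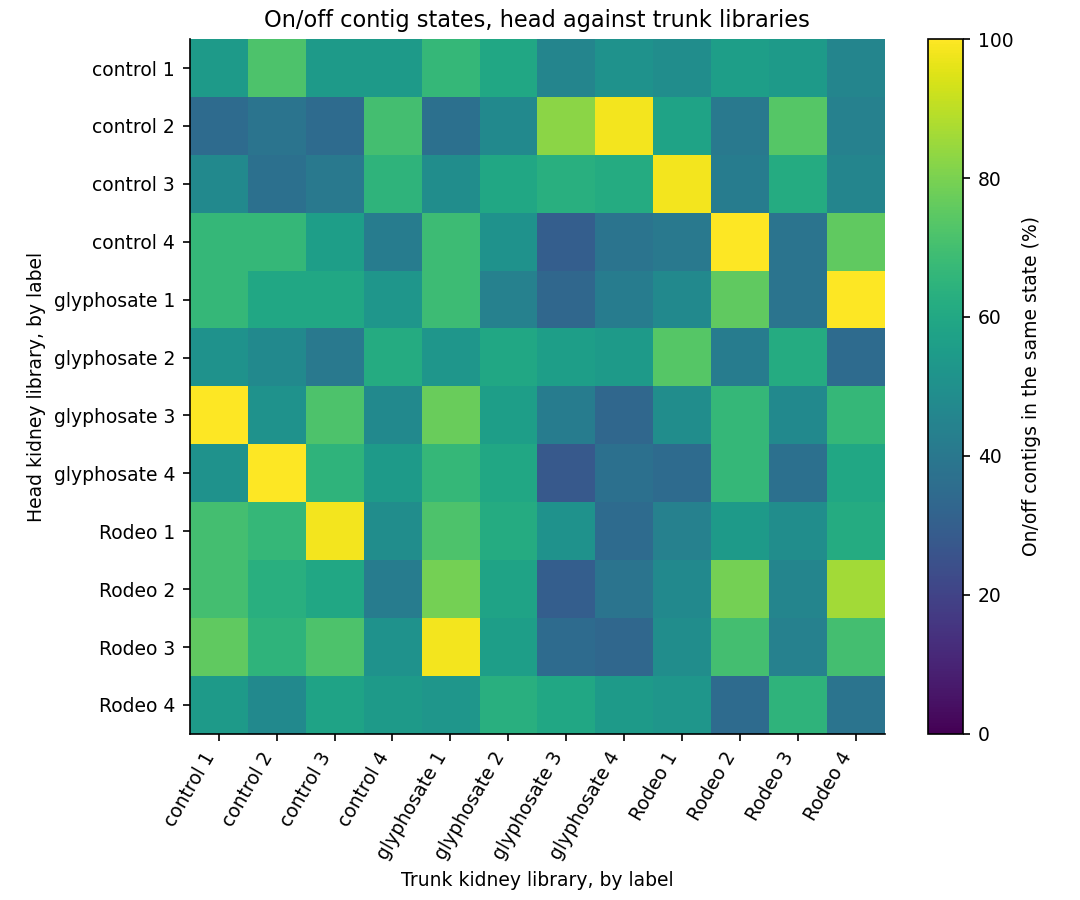
Share of the 57 on/off contigs in the same state (colour, percent) for each head kidney library (rows) and each trunk kidney library (columns), both by label. The 8 matched cells reach 98.2% to 100%, and none of them pairs libraries with the same treatment label.

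No contig passed the test between glyphosate and control in head kidney. In edgeR's quasi-likelihood test with Benjamini-Hochberg adjustment, 0 of 38656 contigs tested were called at 0.05 (0%), and the smallest adjusted p was 0.761. An unadjusted p under 0.05 was found for 2481 contigs (6.42% of those tested), of which 1039 were higher (2.69%) and 1442 lower (3.73%) in the glyphosate group. This fit took its spread from all 12 head libraries. Fitted without the Rodeo libraries, the 8 libraries compared gave 0 calls. An unadjusted p under 0.05 was then found for 1779 of 36455 contigs, 741 higher (2.03%) and 1038 lower (2.85%). The excess of lower contigs did not hold throughout. DESeq2 gave 2134 higher (2.95%) and 1855 lower (2.56%), and edgeR with no filter on low counts gave 2889 (3.99%) and 2105 (2.91%). Both of these were fitted to 72404 contigs, including those of low count, and not to the 38656 above. Higher contigs also outnumbered lower ones without control 3 (975 and 717), without glyphosate 3 (685 and 593) and without control 1 (1241 and 1191). DESeq2 called 35 contigs (0.0848% of 41263), 29 higher and 6 lower. Of the 35, 24 were among the contigs that edgeR tested, 20 higher and 4 lower. The total number of low unadjusted p rested on single libraries, with 4281 contigs without control 2 and 1278 without glyphosate 3. The biological coefficient of variation among head libraries was 0.572, and libraries of the glyphosate group correlated with each other (median r = 0.912 over contigs) as they did with controls (median r = 0.912), while controls correlated with each other at a median r of 0.899. The median SD of log2 CPM (counts per 1000000 counts of a library) per contig was 0.622 among controls, 0.463 without control 3, and 0.474 in the glyphosate group.

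Contigs that were far more abundant in trunk kidney were set apart first. A contig was called trunk-rich where its mean over the 12 trunk libraries was at least 8 times its mean in the 4 head Rodeo libraries and at least 1 CPM, after TMM scaling across all 24 libraries. The control and glyphosate head libraries played no part in that choice. It gave 6869 trunk-rich contigs, of which 2258 passed the filter on low counts, 1443 head-rich contigs by the reverse rule (1441 tested) and 70123 shared contigs (34957 tested). With library totals alone in place of TMM, 5884 contigs were trunk-rich and 2012 head-rich.

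Trunk-rich contigs took a small part of every head library, with glyphosate 1, 2 and 3 above all controls. Their share of the counts was 1.98%, 2.16%, 1.93% and 1.88% in controls 1 to 4. It was 2.28%, 3.68%, 2.33% and 1.57% in glyphosate libraries 1 to 4. The fourth glyphosate library lay below every control, so the groups overlapped. The means were 1.99% ± 0.119 and 2.47% ± 0.883 (SD, n = 4 each), and the difference of 0.479 percentage points shrank to 0.0724 without glyphosate 2. Head Rodeo libraries stood at 1.28% to 1.41%, which the choice of contigs itself keeps low, and trunk libraries at 23.2% to 35.2%.

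**Figure D2:**
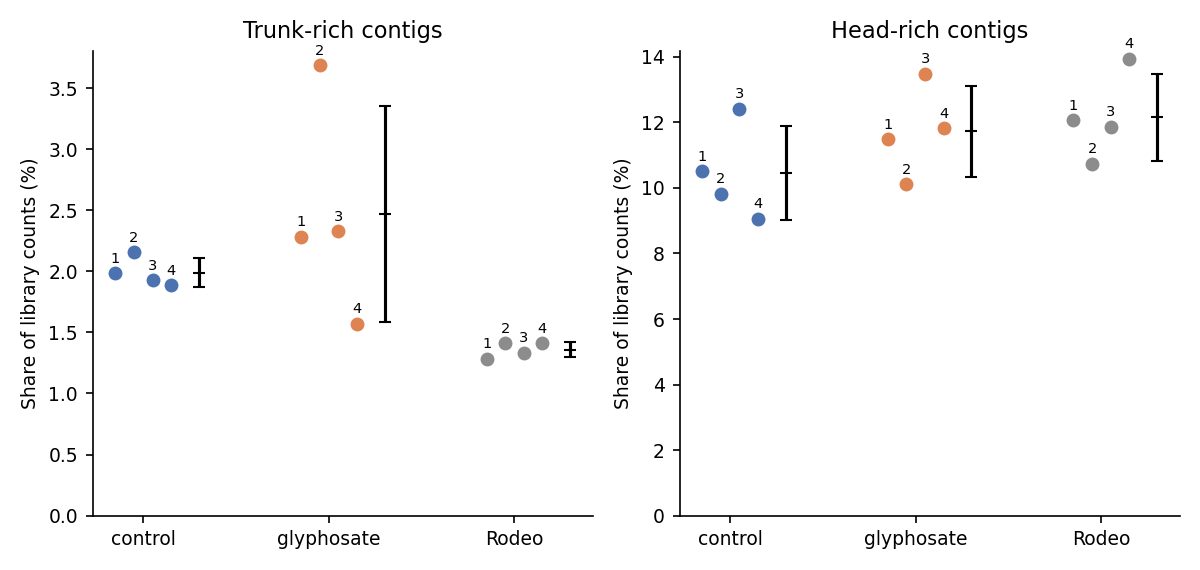
Share of library counts (percent) in trunk-rich contigs (left) and head-rich contigs (right) for each head kidney library, numbered by replicate, with the group mean and SD as bars (n = 4). Trunk-rich contigs reach 3.68% in glyphosate 2 and 1.57% in glyphosate 4, against 1.88% to 2.16% in controls, and the head-rich shares of the groups overlap.

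Contig by contig, the trunk-rich class lay slightly towards glyphosate. The median fitted log2 fold change of glyphosate over control was 0.24 for trunk-rich contigs, 0.04 for shared and -0.11 for head-rich contigs, against 0.05 over all contigs tested. Of the trunk-rich contigs, 64.9% had a fold change above 0, against 53.2% of all. With an unadjusted p under 0.05, 100 trunk-rich contigs were higher (4.43%, against 2.69% of all) and 24 were lower (1.06%, against 3.73% of all). Without glyphosate 2 and glyphosate 3 together, the median of trunk-rich contigs was -0.0034. These counts were then 69 higher (2.72%, against 1.85% of all) and 32 lower (1.26%, against 1.87% of all), so the lean in the counts was smaller but remained. Without glyphosate 2 alone, 92 were higher (3.91%, against 3.46% of all) and 27 lower (1.15%, against 4.12% of all). The higher share was then close to that of all contigs. Without control 1 the higher count was 155 (6.37%, against 3.06% of all), and without control 2 it was 163 (6.75%, against 5.32% of all).

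**Figure D3:**
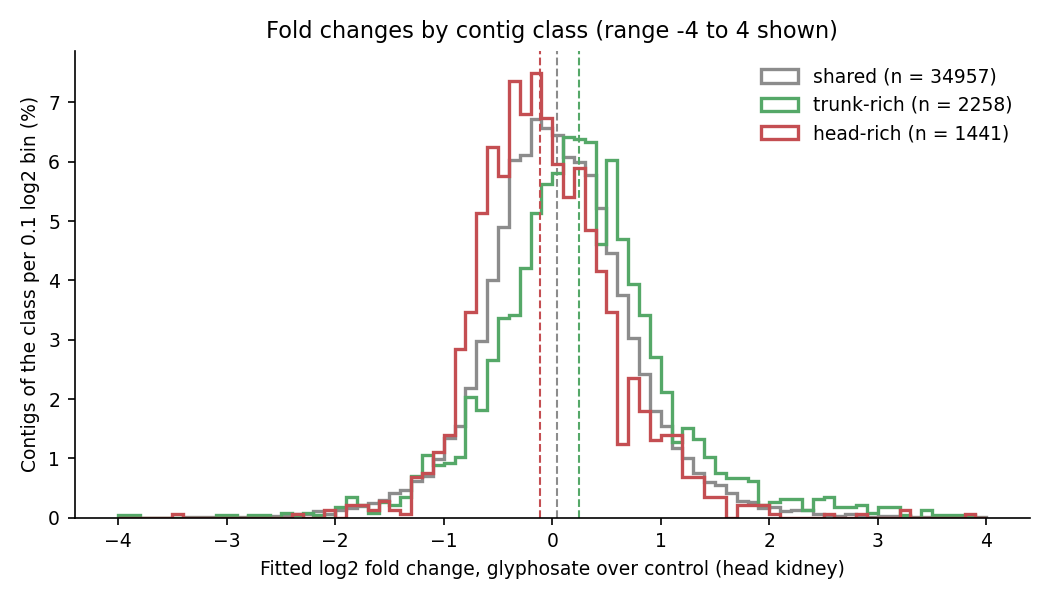
Distribution of fitted log2 fold changes of glyphosate over control in head kidney (x axis, -4 to 4 shown) for shared, trunk-rich and head-rich contigs, as percent of the class per 0.1 bin. Dashed lines mark the medians of 0.24 for trunk-rich, 0.04 for shared and -0.11 for head-rich contigs.

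The 100 trunk-rich contigs with a low p on the higher side differed in which library led them. Glyphosate 2 was the highest of the 8 libraries for 52 of them, glyphosate 3 for 22, glyphosate 1 for 15 and glyphosate 4 for 11. All 4 glyphosate libraries were above all 4 controls for 25 of the 100. The set of glyphosate 2 described further on held 21 of the 100, and 35 of all 38656 contigs tested. Its choice by a lead over every control partly fixes this. Of the 24 on the lower side, 5 had groups that did not overlap, and control 3 was the highest library for 11. Over all 2258 trunk-rich contigs tested, groups did not overlap for 51 on the higher side (2.26%, against 1.76% of all contigs). On the lower side this held for 8 (0.354%, against 1.72% of all contigs).

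Among trunk-rich contigs at a mean level of 1 log2 CPM or more, LMB_Assem.12773.C1 had the smallest p on the higher side. LMB_Assem.12773.C1 belonged to the set of glyphosate 2 described further on. It stood at 0, 0.287, 0 and 0.139 CPM in controls 1 to 4 and at 0, 190, 6.17 and 26.8 CPM in glyphosate 1 to 4. Thus 3 glyphosate libraries were above all controls and 1 had no read, where 3 counts would be 0.269 CPM. Head Rodeo libraries held 0.312 to 0.782 CPM and every trunk library 1015 to 2561 CPM, so the highest head value was still below the lowest trunk value. The fitted log2 fold change of LMB_Assem.12773.C1 was 8.60 (SE 1.61, edgeR adjusted p = 0.761), and DESeq2 gave an adjusted p of 0.000812. The log2 fold change of LMB_Assem.12773.C1 was 6.37 without glyphosate 2 and 9.80 without control 2. Without glyphosate 1, it was the 1 contig that edgeR called.

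On the lower side, isotig131141 had the smallest p among trunk-rich contigs of that level. It stood at 13.4, 17.3, 0.608 and 2.16 CPM in controls 1 to 4 and at 1.26, 1.26, 1.67 and 2.34 CPM in glyphosate 1 to 4. Controls 1 and 2 were high, controls 3 and 4 were not, and the groups overlapped. The log2 fold change of isotig131141 was -2.43 (SE 0.81, edgeR adjusted p = 0.761). Its trunk values ran from 0.0417 to 28.3 CPM, and it was trunk-rich only narrowly, at 8.25 times the head Rodeo mean with TMM scaling and 5.98 times with library totals, where it counted as shared.

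A narrower set described low-level trunk transcripts in head libraries. It held the 1063 trunk-rich contigs that reached 10 CPM and 8 times the head Rodeo mean in every trunk library, and it was defined after the data were seen. At equal depth, 6.59% of these contigs had no read in glyphosate 3. The other glyphosate libraries lacked 46.6%, 30.2% and 25.6% (replicates 1, 2 and 4), the controls 33.5% to 50.8%, and the Rodeo libraries 25.4% to 39.9%. In glyphosate 3 the contigs stood at a median of 1.55% of their trunk level, with a 10th percentile of 0.350%. In the other 11 head libraries the median was 0% to 0.831% and the 10th percentile was 0%. Glyphosate 3 thus held nearly the whole set at a low level, while its share of counts in trunk-rich contigs (2.33%) was close to that of glyphosate 1 (2.28%). Within the set, 566 contigs were tested, 27 were higher (4.77%, against 2.69% of all) and 4 lower (0.707%, against 3.73% of all) with an unadjusted p under 0.05, and the median log2 fold change was 0.23. Glyphosate 3 also had the most contigs detected at equal depth among the 4 glyphosate libraries, and whether carried-over trunk tissue gave these reads was not tested.

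Glyphosate 2 differed in another way, through contigs that were abundant in it and nearly absent from most other head libraries. A set of 91 contigs reached 10 CPM in glyphosate 2 and at least 16 times the highest of 10 other head libraries, with glyphosate 4 left out of the rule. It was chosen after the data were seen, and its high values in glyphosate 2 are a description of the choice. Folds just inside the limit were 16.2, 16.96 and 18.02, and just outside it 15.5, 15.2 and 14.6. These contigs took 2.15% of the counts of glyphosate 2, and 0.00171% to 0.0141% in the 10 libraries the rule used. Identifiers of the isotig kind made up 74.7% of the set, against 58.2% of all 78435 contigs and 13.3% of the 13239 other contigs that reached 10 CPM in glyphosate 2.

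Glyphosate 4 held the same contigs at a lower level. It was left out of the rule with its values known, so its place above the 10 other head libraries follows in part from the rule. They took 0.165% of its counts, and 84 of the 91 were higher there than in all of the 10 other head libraries, which the rule itself had kept low. Per contig, glyphosate 4 stood at a median of 7.62% of glyphosate 2, with quartiles of 4.89% and 11.1%. Rodeo 4 came next, at a median of 0.570%. It was the highest of the 10 for 43 of the 91 contigs (47.3%, against 3.89% of the 13239 others). The order of glyphosate 2, glyphosate 4 and Rodeo 4 thus recurred over part of the set. Since these contigs share libraries, they are not independent observations.

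In trunk kidney the same contigs were of separate kinds. Trunk glyphosate 4 spent 3.36% of its counts on the set and the other 11 trunk libraries 0.214% to 0.499%. Of the 91 contigs, 46 (50.5%) stood out in trunk glyphosate 4, against 0.0831% of the 13239 other contigs. These reached 10 CPM there and at least 8 times the level of every other trunk library, where the highest value was 22.3 CPM. A further 36 stayed under 10 CPM in every trunk library, 6 had a median over trunk libraries of at least 10 CPM and 3 were mixed. The contig with the highest level in the set reached 4649 CPM in glyphosate 2, 317 in glyphosate 4 and 26.5 in Rodeo 4. It stayed at or below 0.976 CPM in controls and 0.234 CPM in trunk kidney, and so it was not abundant in trunk kidney. By the mean over trunk libraries 56 of the 91 contigs counted as trunk-rich, but by the median over trunk libraries 9 did. Without the set, the trunk-rich share of glyphosate 2 was 2.46% and that of glyphosate 4 was 1.49%. The head library labelled control 2, and neither glyphosate 2 nor glyphosate 4, was the one matched to trunk glyphosate 4. The source of these reads was not tested.

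**Figure D4:**
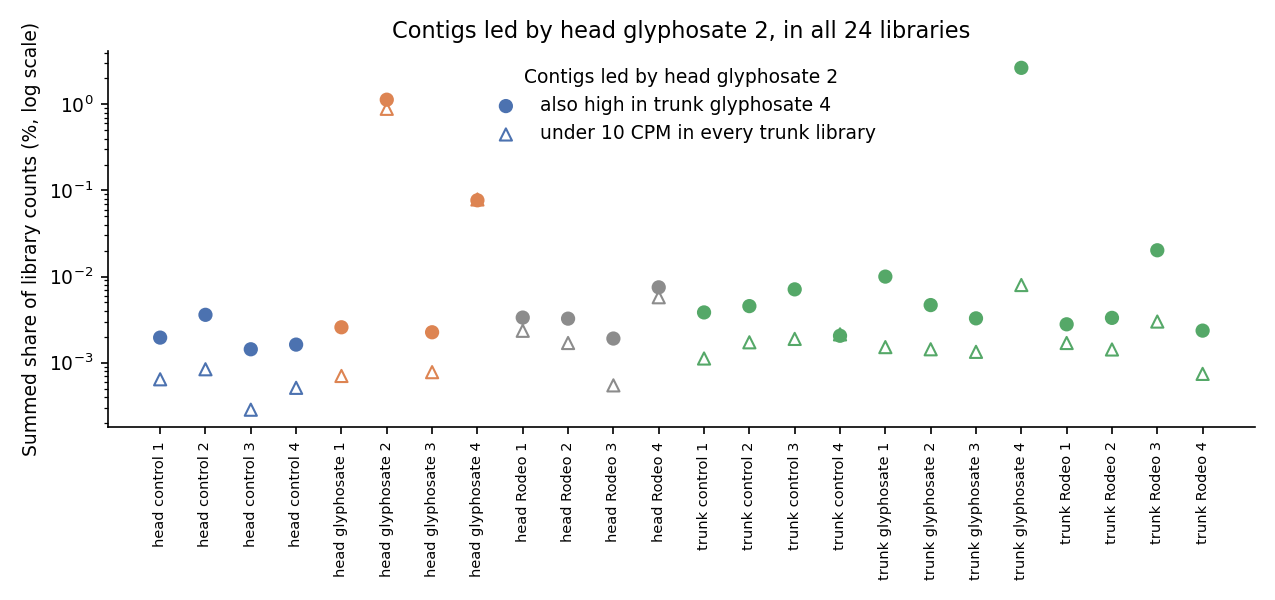
Summed share of library counts (percent, log scale) in all 24 libraries for the 46 contigs of the set that were high in trunk glyphosate 4 alone (circles) and the 36 that stayed under 10 CPM in every trunk library (triangles). Both kinds are high in head glyphosate 2 and lower in head glyphosate 4, and the circles are also high in trunk glyphosate 4.

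Many of the largest differences between glyphosate and control lay in these contigs. With an unadjusted p under 0.05, a fold over 16 and a mean level at or above 1 log2 CPM, there were 50 contigs, 41 higher and 9 lower. Of the 50, 30 belonged to the set of glyphosate 2, whose choice by a 16-fold lead over every control partly fixes this, as 34 of the 24463 contigs tested at that level did. A further 6 (12%, against 0.715% of those 24463) were on/off contigs of head kidney. Their choice by a gap of more than 8-fold among head libraries also partly fixes this. Of the others, 2 (4%, against 4.47%) were trunk-rich, and 12 were none of these. Of the 35 contigs DESeq2 called, 16 belonged to the set (45.7%, against 0.0905% of the 38656 contigs edgeR tested). Of the others, 5 were on/off (14.3%, against 0.616%), 3 were trunk-rich (8.57%, against 5.76%) and 11 were none of these. The choice of the set and of on/off contigs in these same libraries partly fixes these numbers.

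Outside the trunk-rich class, higher and lower contigs differed in level and in size of change. The median level of all contigs tested was 1.90 log2 CPM. The 939 contigs with a low p on the higher side had a median log2 fold change of 1.21 and a median level of 2.49 log2 CPM. The 1418 on the lower side had a median log2 fold change of -0.76 and a median level of 5.34 log2 CPM. The same held where the 4 glyphosate libraries did not overlap the 4 controls. There 628 contigs were higher, with a median log2 fold change of 1.24 and a median level of 1.15 log2 CPM, and 655 were lower, with medians of -0.64 and 5.12. These levels are not corrected for contig length. Whether the level of a contig sets the size of these fold changes was not tested. Over all classes 1342 contigs did not overlap (3.47%), 679 higher (1.76%) and 663 lower (1.72%). With scaling by library totals alone, 752 were higher and 400 lower, so this split depended on the scaling.

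Among the 10 contigs outside the class with the smallest p on each side, the sides again looked different. Of the 10 higher contigs, 1 had groups that did not overlap, against 1.76% of all contigs tested. Glyphosate 2 was the highest of the 8 libraries for 9 of the 10. This held for 3096 of the 24463 contigs tested at a mean of 1 log2 CPM or more. The set of glyphosate 2 held 7 of the 10, which its choice by a 16-fold lead over every control partly fixes. On/off contigs of head kidney made up 9 of the 10 higher and 0 of the 10 lower contigs, against 307 of all 78435 before any filter. The 7 contigs of the set were among these 9. On/off contigs were chosen by a gap of more than 8-fold among these same head libraries, which partly fixes their number here. Of the 10 lower contigs, 9 had groups that did not overlap, against 1.72% of all contigs tested. Their choice by small p in these same libraries partly fixes this. The log2 fold changes of the 9 were -2.76 to -0.90. The other one, at -6.75, had overlapping groups and was high in control 2 alone (357 CPM, against 0.484 to 3.75 CPM in the other controls).

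LMB_Assem.0.C339, a head-rich contig, had the smallest p on the higher side outside the trunk-rich class. It stood at 0, 0.287, 0 and 0 CPM in controls 1 to 4 and at 12.2, 27.03, 0.180 and 9.09 CPM in glyphosate 1 to 4. In the Rodeo libraries it stood at 10.8, 12.5, 0.332 and 5.55 CPM, so within both exposed groups 3 libraries were high and 1 was near 0. This on/off pattern crossed the groups, and glyphosate 3 was below control 2. The log2 fold change of LMB_Assem.0.C339 was 6.85 (SE 1.40, edgeR adjusted p = 0.761; DESeq2 adjusted p = 0.00802). Without glyphosate 2 the log2 fold change was 6.15. Without control 2, the 1 control with a read, the fitted value was 10.44, which depends on how counts of 0 are fitted.

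isotig104779, a shared contig, had the smallest p on the lower side. It stood at 28.2, 26.1, 29.9 and 40.8 CPM in controls 1 to 4 and at 17.9, 16.2, 12.4 and 17.4 CPM in glyphosate 1 to 4. Rodeo libraries stood at 31.3, 36.6, 45.2 and 23.6 CPM, so every glyphosate library was below every control and every Rodeo library. The log2 fold change of isotig104779 was -1.04 (SE 0.24, edgeR adjusted p = 0.761). Between Rodeo and control, which shares these controls, it was 0.24 (SE 0.24).

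One further contig, second by p on the higher side, was the 1 of the 10 without overlap. It stood at 9.95, 9.40, 9.72 and 8.997 CPM in controls and at 19.7, 19.2, 27.1 and 30.1 CPM in the glyphosate group, with Rodeo libraries at 10.0 to 13.7 CPM. Its controls lay close together, and its log2 fold change was 1.25 (SE 0.26, edgeR adjusted p = 0.761). It was singled out after its values were seen.

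**Figure D5:**
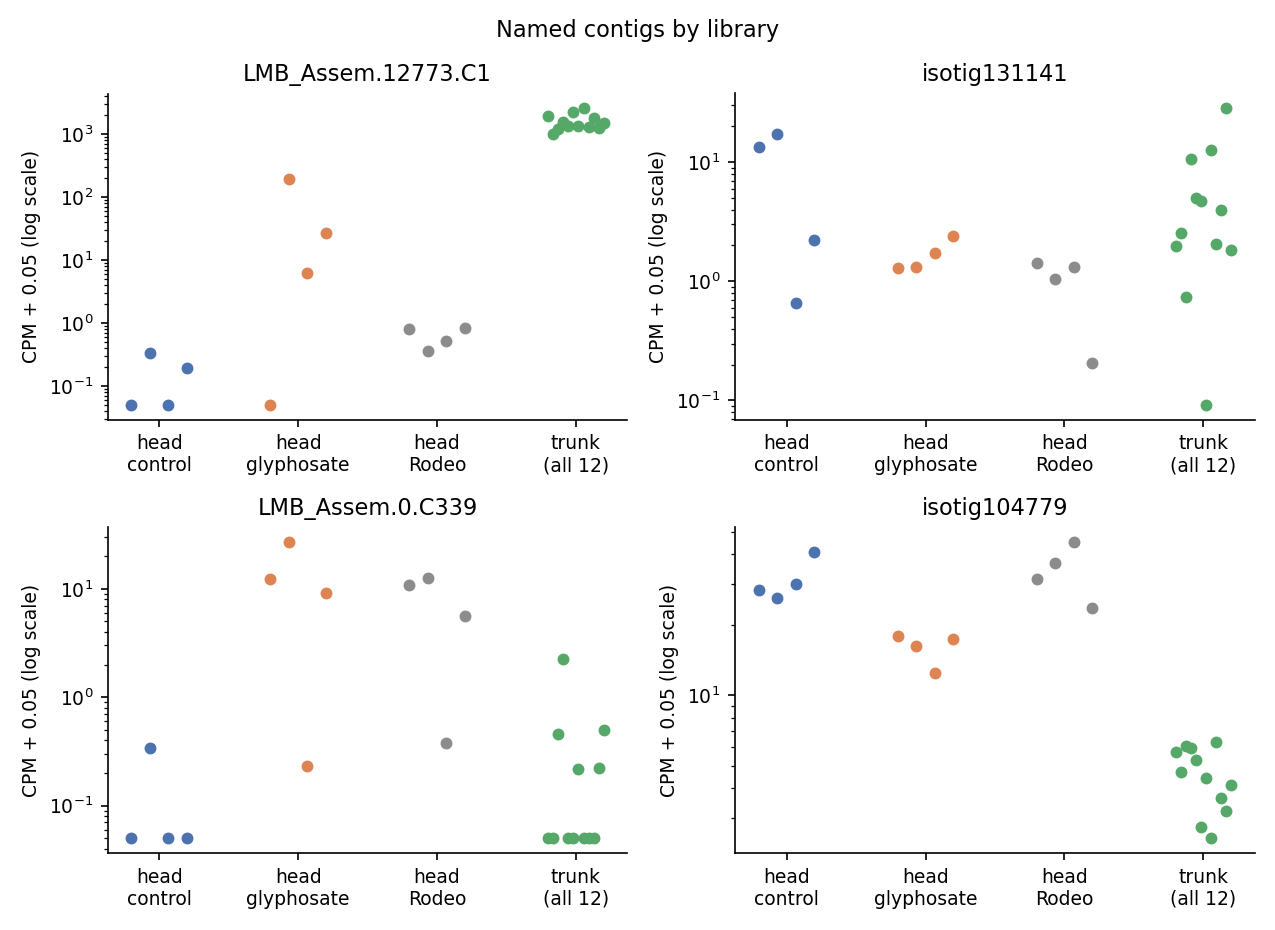
CPM plus 0.05 (log scale) of the 4 contigs named, one point per library, in head control, head glyphosate, head Rodeo and all 12 trunk libraries. LMB_Assem.12773.C1 spreads from 0 to 190 CPM within the glyphosate group and isotig131141 from 0.608 to 17.3 CPM within controls, while the 4 glyphosate libraries of isotig104779 all lie below the controls.

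Head-rich contigs, those at least 8 times more abundant in head Rodeo than in trunk libraries, leaned to the lower side in the main fit. The lean in their counts of low p depended on single libraries. Their median log2 fold change was -0.11 and stayed below 0, from -0.17 to -0.048, when single libraries were left out. Their share of the counts was 10.5%, 9.83%, 12.4% and 9.06% in controls and 11.5%, 10.1%, 13.5% and 11.8% in the glyphosate group, and the groups overlapped. With an unadjusted p under 0.05, 45 were higher (3.12%, against 2.69% of all) and 106 lower (7.36%, against 3.73% of all). Without control 3 the counts turned, with 84 higher (5.83%, against 2.36% of all) and 50 lower (3.47%, against 1.73% of all). The median did not turn and was -0.16 without control 3. Without glyphosate 3 the counts were level, with 36 higher (2.50%, against 1.70% of all) and 35 lower (2.43%, against 1.47% of all). Without glyphosate 4, 31 were higher (2.15%, against 2.20% of all) and 39 lower (2.71%, against 2.69% of all). Without control 1, 42 were higher (2.91%, against 3.06% of all) and 51 lower (3.54%, against 2.94% of all). Without any other single library, 112 to 129 were lower (7.77% to 8.95%, against 2.88% to 5.35% of all). Their groups did not overlap for 13 contigs on the higher side (0.902%, against 1.76% of all) and 29 on the lower side, a share (2.01%) close to that of all contigs (1.72%).

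Few contigs were present in one group and absent from the other. At equal depth, 69082 contigs had at least 1 count in any library of either group. Of these, 138 had at least 1 count in all 4 glyphosate libraries and none in any control, and 11 had the reverse. At a minimum of 3 counts these numbers were 7 and 0 of 60309 contigs, and at 10 counts both were 0 of 43214. Fewer contigs were detected at equal depth in controls (46881 ± 7576) than in the glyphosate group (52580 ± 4973, SD, n = 4 each), which moves with these numbers, and its part in them was not tested.

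The glyphosate comparison in head kidney was set beside that in trunk kidney, which uses other libraries. Over the 32535 contigs tested in both tissues, 45.4% had a log2 fold change above 0 in trunk kidney. Of the contigs with a low p on the lower side in head kidney, 1376 were tested in trunk kidney, and 73.4% of them had a fold change above 0 there (median 0.28). Of the contigs on the higher side in head kidney, 904 were tested in trunk kidney, and 35.1% had a fold change above 0 there (median -0.23). Contigs picked in head kidney thus tended to the opposite sign in trunk kidney. Over all 32535 contigs, head and trunk fold changes were only weakly related (r = -0.126). The share of 45.4% over all contigs was not matched to the picked contigs for level. Of the 10 lower contigs with the smallest p in head kidney, isotig104779 had a trunk log2 fold change of -0.16 (SE 0.31) and the other 9 ranged from 0.20 to 3.57. The head libraries labelled glyphosate 3 and 4 were the ones matched to trunk control 1 and 2, and control 2 to trunk glyphosate 4, and the part of this matching in the opposite signs was not tested.

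How far the head effect differed from the trunk effect was tested over all 24 libraries. It was called for 0 of 52407 contigs (0%) by edgeR, with a smallest adjusted p of 0.0734, and an unadjusted p under 0.05 was found for 6292 (12%). DESeq2 called 209 of the 78435 contigs it fitted. For isotig104779 the difference was -0.86 (SE 0.37, edgeR adjusted p = 0.367) and for LMB_Assem.12773.C1 it was 7.69 (SE 1.55, edgeR adjusted p = 0.227). These fits took every library as labelled and as independent of the others. The 8 matched pairs of head and trunk libraries were not part of the model, and their effect on these values was not tested.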

How the data were processed

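The deposited values are whole-number read counts per contig, not normalized by the authors, and a contig absent from a file was taken as 0. The submitters' processing notes name cutadapt, SAMtools, DESeq and edgeR. No source used here gives the aligner, the counting or the use of strand. Per the labels' protocols, libraries came from poly(A) RNA and a directional kit. Contigs of near-identical sequence may share reads, so single contigs are uncertain to that extent. Contig lengths are not used here, so levels compared between contigs or sets of contigs are not corrected for length.

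The 12 head libraries (3 groups) were fitted with edgeR 4.0.16 in R 4.3.3 (TMM, filterByExpr, quasi-likelihood test, Benjamini-Hochberg threshold 0.05). CPM per library are counts per 1000000 of the library total, and non-overlap was judged on TMM-scaled values. DESeq2 1.42.0 was an alternative. Classes used TMM-scaled CPM of all 24 libraries and an offset of 0.1 CPM. On/off contigs had at least 2 libraries on each side of the gap and reached 1.5 log2 CPM, and matched libraries were each other's best partner at 90% or more. Named contigs were the higher and the lower contig of smallest p among trunk-rich contigs and among the others, at a mean of 1 log2 CPM or more. Members, classes and lists were chosen with earlier results of these data known. The fits were tested on simulated data, and how many changes they recovered there is not reported here. No replicates were duplicates (chi-square per degree of freedom 37.3 to 80.5). Tanks are not given per library, so p-values reflect variation between the libraries only, and limits for a count of 0 cover counting error only.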

Additional observations from a re-analysis of the deposited data

Results flagged for a closer look

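In a group of 4 libraries, the highest or lowest value was compared with the nearest other value relative to the range, which chance flags in about 1 of 20 groups, and 24 groups of values were tested. In the glyphosate group, replicate 2 lay far above the other 3 for the share of counts in the 91 contigs it leads (2.15%) and for LMB_Assem.12773.C1 (190 CPM). Both describe that library. LMB_Assem.12773.C1 belongs to these 91 contigs, so both follow at least in part from how the contigs were chosen. In the same group, replicate 1 lay far below the others for contigs detected at equal depth (45203). Among controls, replicate 2 was the 1 library with any read of LMB_Assem.0.C339 (0.287 CPM).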

How the results depend on the processing

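The count of 0 contigs called by edgeR was 35 with DESeq2, 75 with no filter on low counts and 186 without the libraries matched to another label, a fit with 1 control and 1 glyphosate library that takes its spread from the 2 unmatched Rodeo libraries. Leaving out single replicates gave 0 to 1. Contigs with an unadjusted p under 0.05 numbered 3989 with DESeq2 and 4994 with no filter, both over 72404 contigs. The reported 2481 were over 38656 contigs. Such contigs numbered 1779 of 36455 with only the 8 libraries compared, and 1579 without glyphosate 2 and 3 together. With single replicates left out they numbered 1278 to 4281. The median log2 fold change of trunk-rich contigs was -0.0034 without glyphosate 2 and 3 together and 0.14 to 0.38 with single replicates left out. It was 0.028 with the trunk-rich share as a covariate. That share sums these same contigs in these same libraries, so the covariate itself pulls their median towards 0. The difference in trunk-rich share was 1.70 percentage points without the matched libraries and 0.0724 to 0.777 when single replicates were left out. With library totals in place of TMM for the classes, it was 0.463. It was 0.199 with classes from the trunk median, 0.138 with classes from all 12 head libraries and 0.907 at a limit of 4 times. A limit of 16 times gave 4495 trunk-rich contigs. The difference of effects between tissues was called for 209 contigs with DESeq2 and for 0 to 3 when single replicates were left out. Replicate numbers did not pair the libraries (same-numbered r from -0.100 to 0.0720), and with the replicate number as a block 1 contig was called, LMB_Assem.0.C339. The causes of these shifts were not tested. The trunk median, the classes from library totals, the fit without 2 libraries together, the share without matched libraries and the sets of 1063 and 91 contigs were added after the data were seen. Contigs that did not pass a setting's filter have no value there. In the 8 libraries compared, 3 counts were 0.123 to 0.304 CPM, and levels below that cannot be told from 0.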

Other observations

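The deposited lists carry running numbers, 8 of which occur in both tissues. Head and trunk libraries with the same number were alike for 36.8% to 78.9% of the on/off contigs, and 0 of the 8 matched pairs shared a number. When the 12 head libraries were put in the order of their numbers, the number of the matched trunk library lay 6 places away in all 8 matched pairs. Head control 1, glyphosate 2, Rodeo 2 and Rodeo 4 had no match. No trunk library carried the number 6 places from theirs (36, 77, 12 and 35), so these libraries could not show this pattern. No library was moved to another group, and the numbers put no sample in a group.

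Contigs at least 16 times above all 11 other head libraries numbered 34 in glyphosate 2 and 8 in control 2, and 0 to 2 in each of the other head libraries.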
